A study of Mus musculus with 6 samples.

Results

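The 9 genes described here encode small leucine-rich proteoglycans, secreted matrix proteins whose leucine-rich repeats form a curved solenoid. They are Dcn (decorin), Lum (lumican), Bgn (biglycan), Fmod (fibromodulin), Ogn (osteoglycin), Omd (osteomodulin), Aspn (asporin), Prelp and Podn (podocan). Members were taken by gene symbol from a table of 55401 genes, and all 9 were present. All 9 also passed the filter on low counts, which left 13590 tested genes. The source was a series of 6 RNA-seq libraries from cancer-associated fibroblasts (CAFs), the tumour-resident fibroblasts, taken from growths that formed after mouse tumour organoids were injected into the rectum, and then cultured on fibronectin. The host mice were wild type (WT, 3 libraries) or Thbs2KO (3 libraries), meaning without functional Thbs2, the gene for the matricellular protein thrombospondin-2. The injected organoids are described in the labels without a genotype and without a difference between the groups, and no label gives an age or strain of the hosts. Every library comes from cells expanded in culture with serum, which limits it as a picture of the tumour.

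Small leucine-rich proteoglycans bind the surface of collagen fibrils and limit their thickness and spacing, and several also hold TGF-beta or engage cell surface receptors. Decorin and biglycan carry chondroitin or dermatan sulfate chains, lumican, fibromodulin and osteomodulin carry keratan sulfate or its unsulfated precursor, and asporin is made without such chains. Fibroblasts are a main source of decorin, biglycan and lumican in connective tissue. Thrombospondin-2 is itself a regulator of collagen fibril shape, since mice without it have irregular, thickened fibrils in the skin.

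Library totals ran from 19649066 to 24417464 expected counts. Levels are given as CPM, counts scaled to the library total with TMM factors, in order of replicate, with SD over 3 libraries. Thbs2 measured 2327, 4166 and 3705 CPM in the WT group and 538, 425 and 412 CPM in the Thbs2KO group, so the libraries match their labels. Thbs2KO replicates 1 and 2 were far more alike than any other pair. The chi-square of their counts over genes was 3.88 per degree of freedom, while Thbs2KO replicate 3 gave 53.5 and 58.6 with them. WT replicates 2 and 3 gave 15.6, while WT replicate 1 gave 67.8 and 68.1 with them. WT replicate 1 and Thbs2KO replicate 3 thus stood apart within their own groups. Between the groups, pairs without either of these libraries gave 45.4 to 55.9. WT replicate 1 gave a similar 54.3 and 52.9 with Thbs2KO replicates 1 and 2. Results that rest on WT replicate 1 or Thbs2KO replicate 3 are therefore given with and without them, for some members only under the dependence on processing. The labels do not tell whether replicates were separate animals or separate dishes, and p-values measure only the spread between libraries, which may be technical. Of 8 fibroblast markers all were detected, with summed levels of 27460 to 29740 CPM in WT and 26030 to 31460 CPM in Thbs2KO. Most of each sum was Col1a1 and Col1a2. Log2 fold changes were positive for 4 markers and negative for 4, and 0 passed the edgeR test described below. At an unadjusted p below 0.05, 1 was higher and 0 lower, against 5.72% and 7.56% of all tested genes. DESeq2 called 1 higher. Pdgfra measured 750.5, 556 and 388 CPM in WT and 1013, 947 and 1527 CPM in Thbs2KO. Fap measured 2.76 to 13.2 CPM in the 6 libraries. Epithelial markers summed to 19.8 to 26.2 CPM in WT and 7.19 to 9.53 CPM in Thbs2KO, and the part of this difference in the results below was not tested. Immune, endothelial, mesothelial and glial markers summed to at most 14.4, 50.5, 1.53 and 2.15 CPM, and Cd3e, Cldn5, Upk3b, Lrrn4, Muc16 and Sox10 were at 0 in all 6 libraries. Most of the endothelial 50.5 CPM, in Thbs2KO replicate 1, was Kdr (45.0 CPM). Tek measured 4.70 to 9.73 CPM in the 6 libraries, and Pecam1, Cdh5, Vwf and Emcn stayed below 1 CPM. In bulk RNA, a change in how many cells make a transcript and a change in the amount per cell cannot be told apart.

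Across the family, 7 of 9 members had a positive log2 fold change in Thbs2KO against WT and Fmod and Prelp had negative ones. None passed edgeR's test, which was adjusted by Benjamini-Hochberg over all tested genes at a threshold of 0.05 and called 1.09% of them. Adjusted p-values below are from that test unless another tool is named. At an unadjusted p below 0.05 there were 5 members, with Omd, Ogn and Aspn positive and Fmod and Prelp negative, against 13.3% of all tested genes in either direction, 5.72% higher and 7.56% lower. DESeq2 called 4 members (Omd, Ogn, Fmod and Prelp) where it called 5.14% of all genes, and limma-voom called 0 where it called 1.08%. These shares of all tested genes also stand beside the counts given for each gene list below. The fitted change was over 2-fold upward for 5 members and for 2.55% of all tested genes, and over 2-fold downward for 2 members and 2.46% of all. The median log2 fold change was 1.15 over the members and -0.0038 over all tested genes. The groups did not overlap for 4 members (Omd, Ogn and Aspn higher, Fmod lower), and for 19.7% of all tested genes, 9.37% higher and 10.3% lower. With 1 library left out, edgeR called Fmod and Prelp without WT replicate 1 (2.89% of all genes), Omd without WT replicate 2 (0.575%), and 0 members without WT replicate 3 (0.357%) or without Thbs2KO replicate 1, 2 or 3 (0.274%, 0.324% and 0.792%). For each member called, the library left out was the WT library nearest to Thbs2KO. Thbs2KO replicate 3 was the highest of the 6 libraries for 7 members, all but Fmod and Prelp, and for 26.6% of all tested genes.

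**Figure D1:**
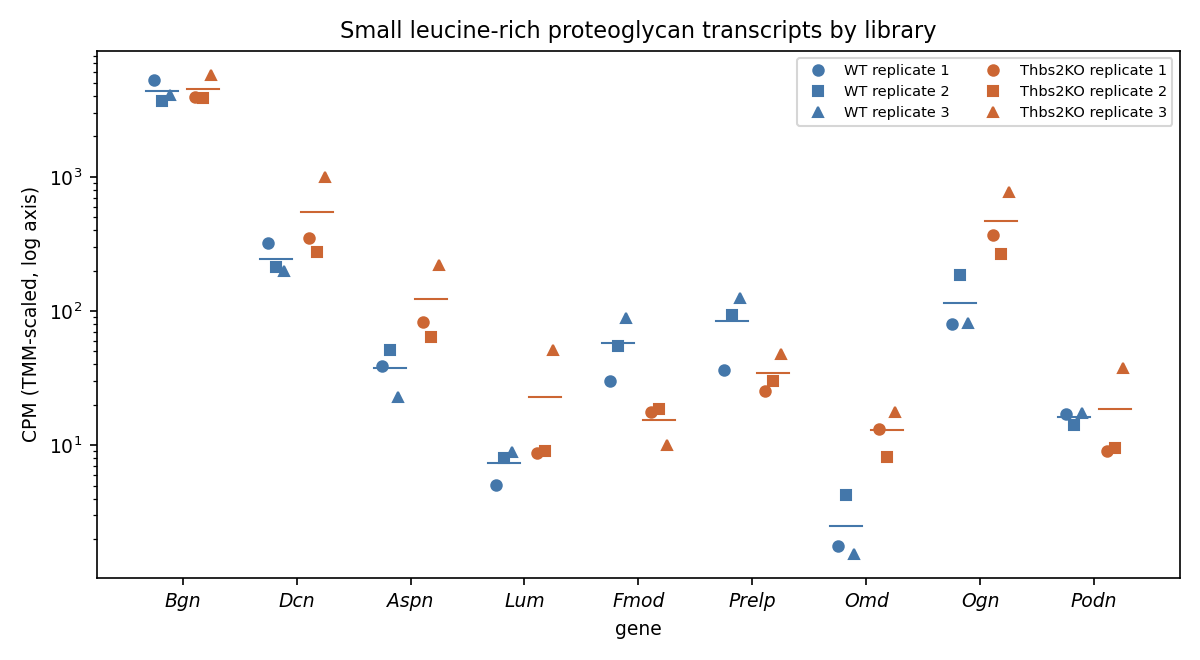
Level of each family member in CPM on a log axis, with 1 point per library, shape for the replicate number, blue for WT and orange for Thbs2KO, and a line at the mean of each group. Omd, Ogn and Aspn are higher in all Thbs2KO libraries, Fmod is lower in all of them, and the Thbs2KO replicate 3 triangle stands above the other 5 libraries for 7 of 9 genes.

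To compare genes with each other, levels were divided by the length of the longest protein-coding transcript (CPM per kb). Bgn was by far the leading member. Its level per kb reached 2194, 1527 and 1672 in the WT group and 1619, 1599 and 2385 in the Thbs2KO group. Dcn came next with 140 ± 38.5 CPM per kb in WT and 309 ± 228 in Thbs2KO (SD, n = 3), followed by Ogn with 45.0 ± 23.5 and 183 ± 104. In WT the order went on with Prelp (23.5 ± 12.4), Fmod (18.6 ± 9.34), Aspn (16.1 ± 6.12), Podn (5.13 ± 0.559), Lum (2.999 ± 0.821) and Omd (1.12 ± 0.667 CPM per kb). In Thbs2KO it went on with Aspn (52.9 ± 36.9), Prelp (9.56 ± 3.35), Lum (9.43 ± 10.0), Podn (5.93 ± 5.19), Omd (5.78 ± 2.10) and Fmod (4.96 ± 1.53 CPM per kb). By this length Fmod was number 5 of 9 in WT and last in Thbs2KO. Neighbours in this order whose library ranges overlapped were Ogn with Prelp, Prelp with Fmod and Fmod with Aspn in WT. In Thbs2KO they were Dcn with Ogn, and each neighbouring pair from Prelp down to Fmod. With all annotated exons as the length, retained introns included, Dcn and Ogn changed places in both groups, and the last places in Thbs2KO went to Omd, Fmod and Podn (5.78, 4.68 and 4.4 CPM per kb), so that Podn and not Fmod was last.

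Biglycan made up most of the family's transcripts in every library. As a share of the 9 members' summed CPM per kb, Bgn held 89.4%, 85.0% and 88.0% in the WT libraries and 80.0%, 83.6% and 70.0% in the Thbs2KO libraries. The groups did not overlap, though 83.6% in Thbs2KO lay close to 85.0% in WT. By CPM, 19.7% of all tested genes did not overlap either. The Ogn share was 1.27%, 4.02% and 1.68% in WT and 7.10%, 5.46% and 8.81% in Thbs2KO. That of Dcn was 7.49%, 6.78% and 5.96% in WT and 9.90%, 8.17% and 16.8% in Thbs2KO. These shares sum to the whole, so a lower one for Bgn goes with higher ones elsewhere.

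Bgn, which carries glycosaminoglycan chains and is a ligand of Toll-like receptors when released from matrix, lies on chromosome X (73483602 to 73495933, plus strand, mm10). It measured 5308, 3694 and 4044 CPM in WT and 3917, 3868 and 5770 CPM in Thbs2KO. The highest library of each group was the one that stands apart, and the groups overlapped throughout. The log2 fold change was 0.06 (SE 0.21; edgeR, adjusted p = 0.955), and it turned to -0.16 without Thbs2KO replicate 3 and to -0.04 without WT replicate 2.

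Dcn, whose core protein binds collagen I and TGF-beta, lies on chromosome 10 (97479609 to 97518143, plus strand). It measured 323, 214 and 199 CPM in WT and 352, 275 and 1004 CPM in Thbs2KO. Thbs2KO replicate 3 stood 3.20-fold above the mean of the other Thbs2KO libraries, which were near the top of the WT range. The log2 fold change of 1.15 (SE 0.50; edgeR, adjusted p = 0.397) became 0.35 without that library.

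Aspn, a chain-free relative of decorin that competes with it for collagen and binds TGF-beta, lies on chromosome 13 (49544443 to 49567565, plus strand). It measured 38.9, 51.1 and 22.7 CPM in WT and 83.4, 64.5 and 222 CPM in Thbs2KO. Every Thbs2KO library was above every WT library, though the lowest Thbs2KO value was close to the highest WT one. The log2 fold change was 1.71 (SE 0.52; edgeR, unadjusted p = 0.0148, adjusted p = 0.222), and 0.98 without Thbs2KO replicate 3.

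Lum, a keratan sulfate proteoglycan known for fibril spacing in the cornea, follows Dcn on chromosome 10 (97565128 to 97572703, plus strand). It was low in 5 of 6 libraries, at 5.08, 8.02 and 8.93 CPM in WT and 8.80, 9.10 and 51.3 CPM in Thbs2KO. The single high value, 5.74-fold above the mean of the other Thbs2KO libraries, set its log2 fold change of 1.65 (SE 0.73; edgeR, adjusted p = 0.404), which was 0.29 without Thbs2KO replicate 3. Without WT replicate 1 as well, the log2 fold change of Lum was 0.08. Its SD in Thbs2KO, 24.5 CPM, was above its mean there, 23.1 CPM, which held for no other member in either group.

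Fmod, a keratan sulfate relative of lumican that occupies the same collagen I site and promotes crosslinking, lies on chromosome 1 (134037254 to 134048277, plus strand). It measured 30.4, 55.0 and 88.4 CPM in WT and 17.8, 18.6 and 9.97 CPM in Thbs2KO. Here Thbs2KO replicate 3 was the lowest library, and all 3 Thbs2KO libraries lay below all WT ones. The mean was 57.9 ± 29.1 CPM in WT and 15.5 ± 4.79 CPM in Thbs2KO (SD, n = 3), a log2 fold change of -1.90 (SE 0.42; edgeR, unadjusted p = 0.00321, adjusted p = 0.110). DESeq2 gave an adjusted p of 0.000104. By edgeR the adjusted p was 0.0328 without WT replicate 1 and 0.0448 without WT replicate 1 together with Thbs2KO replicate 3, where 2.89% and 11.2% of all tested genes were called, and 0.219 to 0.312 with any other single library left out. For Fmod, WT replicate 1 was the WT library nearest to Thbs2KO, so the calls without it add no support. Without both libraries the Thbs2KO group was only the most alike pair, replicates 1 and 2. With that pair summed and all other libraries kept, the adjusted p was 0.288 by edgeR. Markers of pericytes and smooth muscle (8 genes, 7 tested) summed to 259, 980 and 627 CPM in WT and 313, 433 and 337 CPM in Thbs2KO. Their sum, like Fmod, was lowest within WT in replicate 1, while Notch3 was highest there (9.51, 4.21 and 2.60 CPM in WT). Of the tested genes 5 had negative and 2 positive log2 fold changes. In this list 4 genes were lower and 0 higher at an unadjusted p below 0.05 by edgeR, against 7.56% and 5.72% of all tested genes. DESeq2 called 2 lower, where it called 5.14% of all genes in either direction. None of its 8 genes was at 0 in all libraries and 1, Rgs5, stayed below 1 CPM, and the part of this list in the Fmod and Prelp values was not tested.

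Prelp, which has a basic, heparin-binding amino terminus and links basement membranes to collagen, lies near Fmod on chromosome 1 (133910304 to 133921414, minus strand). It measured 36.1, 93.9 and 124 CPM in WT and 25.3, 30.1 and 48.3 CPM in Thbs2KO. WT replicate 1 fell within the Thbs2KO range, so the groups overlapped. Fits without that library leave out the WT value nearest to Thbs2KO, so calls in them add no support. The log2 fold change was -1.29 (SE 0.46; edgeR, unadjusted p = 0.0281, adjusted p = 0.295; DESeq2 adjusted p = 0.0444). Without WT replicate 1 it was -1.66 (edgeR, adjusted p = 0.0464), and without both that library and Thbs2KO replicate 3 it was -1.98 (edgeR, adjusted p = 0.00977). In the latter fit 11.2% of tested genes were called, and the Thbs2KO group was only the most alike pair, replicates 1 and 2. With that pair summed and all other libraries kept, the log2 fold change was -1.16 (edgeR, adjusted p = 0.579).

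Omd, an acidic keratan sulfate proteoglycan of mineralised tissue, lies on chromosome 13 (49582462 to 49592822, plus strand) and was the least abundant member in WT. Its reads numbered 41, 97 and 37 in WT and 282, 166 and 359 in Thbs2KO, or 1.77, 4.25 and 1.55 CPM and 13.3, 8.12 and 17.6 CPM. Replicate 2 was the highest WT library and the lowest Thbs2KO library, and the groups did not overlap. It had the largest log2 fold change of the 9, 2.37 (SE 0.46; edgeR, unadjusted p = 0.00168, adjusted p = 0.0790), with a DESeq2 adjusted p of 1.37e-05. By edgeR the adjusted p was 0.0489 without WT replicate 2, where 0.575% of tested genes were called, and 0.101 to 0.269 with any other library left out. The log2 fold change with 1 library left out ran from 2.09 to 2.98. For Omd, WT replicate 2 was the WT library nearest to Thbs2KO, so the call without it adds no support.

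Ogn, a keratan sulfate protein also known as mimecan, lies next to Omd (49608046 to 49624501, plus strand). It measured 79.8, 185 and 81.7 CPM in WT and 369, 268 and 771 CPM in Thbs2KO. As with Omd, WT replicate 2 was the highest WT library and Thbs2KO replicate 2 the lowest of its group, and no values overlapped. The mean was 116 ± 60.3 CPM in WT and 469 ± 266 CPM in Thbs2KO (SD, n = 3), with a log2 fold change of 2.02 (SE 0.50; edgeR, unadjusted p = 0.00567, adjusted p = 0.140; DESeq2 adjusted p = 0.0337). It was 1.46 without Thbs2KO replicate 3 and ran up to 2.55 without WT replicate 2.

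Podn, podocan, a member found around smooth muscle and fibroblasts, lies on chromosome 4 (108014791 to 108096445, minus strand). It measured 17.1, 14.2 and 17.5 CPM in WT, the tightest WT group of the family, and 9.03, 9.54 and 37.8 CPM in Thbs2KO. The Thbs2KO libraries lay on both sides of WT, replicates 1 and 2 below and replicate 3 above. The log2 fold change of 0.21 (SE 0.56; edgeR, adjusted p = 0.928) therefore changed sign without Thbs2KO replicate 3, to -0.81 (edgeR, adjusted p = 0.0806). Without both that library and WT replicate 1 it was -0.77 (edgeR, adjusted p = 0.0162), where 11.2% of tested genes were called. In both of these fits the Thbs2KO group was only the most alike pair, replicates 1 and 2. With that pair summed and all other libraries kept, the log2 fold change was 0.52 (edgeR, adjusted p = 0.819).

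**Figure D2:**
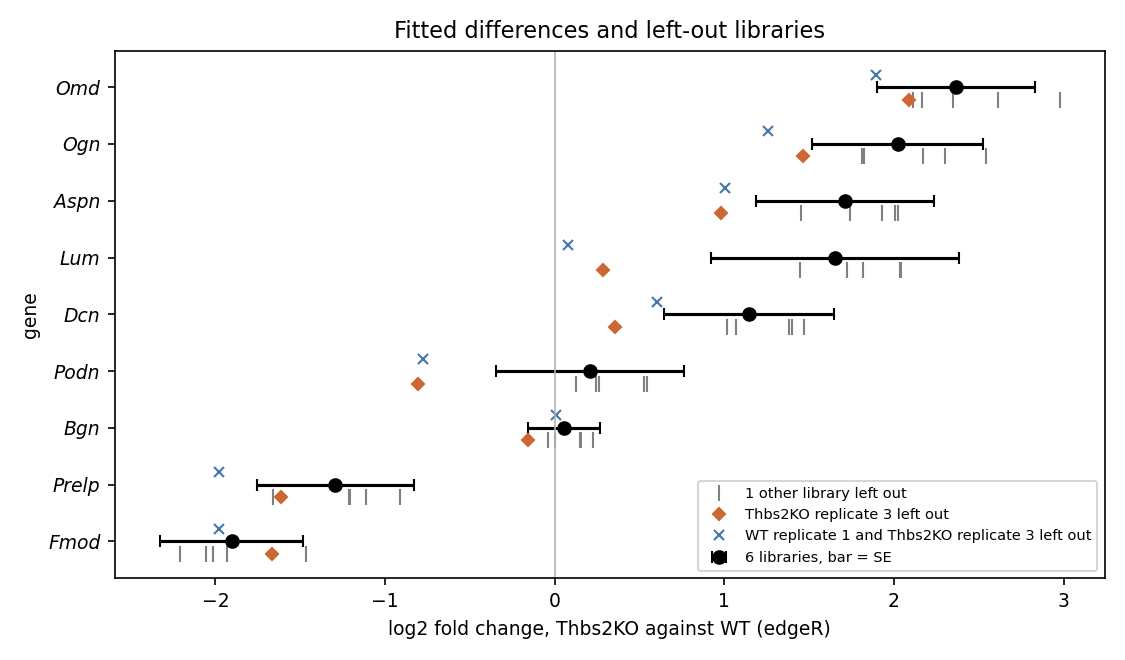
Fitted log2 fold change of each member with its standard error (black), with Thbs2KO replicate 3 left out (diamonds), with each other library left out (ticks) and with WT replicate 1 and Thbs2KO replicate 3 omitted together (crosses). Omd, Ogn and Aspn stay positive and Fmod and Prelp negative in each of these fits, while Lum and Dcn shrink to 0.29 and 0.35 and Podn turns to -0.81 without Thbs2KO replicate 3.

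The members' patterns over the libraries were compared in pairs, and no division into sets was tested. Likeness was measured as the root mean square difference of log2 CPM after centring each gene on its own mean over the 6 libraries, so a smaller value means more alike. Of the 36 pairs of members, Ogn and Omd were the most alike at 0.29, followed by Ogn and Aspn at 0.36, Dcn and Aspn at 0.47 and Bgn and Podn at 0.51. Dcn and Lum stood at 0.56, and Fmod and Prelp at 0.66. Fmod was nearer to Prelp than to any other member, and Fmod and Omd were the least alike pair at 2.28. Centred on its own mean, Omd stood on the log2 scale at -1.55, -0.32 and -1.73 across WT, with 1.30, 0.60 and 1.70 across Thbs2KO. Lum was at -1.06, -0.41, -0.26, -0.28, -0.23 and 2.25 in the same order, which is 1 library against the other 5.

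**Figure D3:**
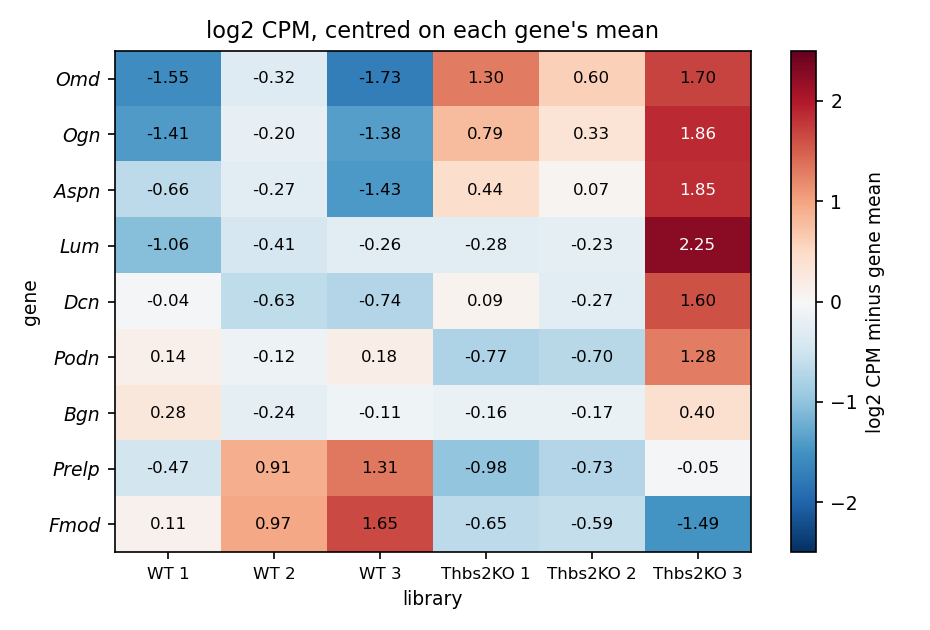
log2 CPM of each member (prior count of 2) minus its mean over the 6 libraries, with genes in rows, libraries in columns and red above the mean. Omd and Ogn are below their mean in all WT libraries and above it in all Thbs2KO libraries, while the Lum, Dcn and Podn rows are highest in Thbs2KO replicate 3, at 2.25, 1.60 and 1.28.

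The same measure was taken against 10472 other genes whose mean reached 5 CPM or more. The 5 genes nearest to Omd were Ngfr (the low-affinity neurotrophin receptor, 0.23), Ccdc3 (a secreted coiled-coil protein, 0.29), Ogn (0.29), Rtl3 (a retrotransposon-derived Gag-like gene, 0.38) and Prg4 (the lubricating proteoglycan lubricin, 0.38). Ngfr measured 13.8, 31.5 and 17.9 CPM in WT and 112, 76.0 and 190.5 CPM in Thbs2KO (edgeR, adjusted p = 0.0574). Rtl3 alone of these passed the test (edgeR, adjusted p = 0.0410), and it did not without WT replicate 3 or without any 1 of the Thbs2KO libraries (adjusted p from 0.0922 to 0.186) or with the most alike pair summed (0.139), with log2 fold changes of 1.71 to 1.97. Aspn ranked number 21 in nearness to Omd. Among the 5 genes nearest to Fmod were Htr1b (a serotonin receptor, 0.19), Acta1 (skeletal muscle actin, 0.23), Cnn1 (calponin of smooth muscle, 0.34) and Ecscr (a surface protein first described in endothelium, 0.34). None of these 4 passed the test by edgeR (adjusted p from 0.0833 to 0.123), and Prelp ranked number 101.

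Most members are neighbours in the genome, and the tested family genes of each neighbourhood had the same sign. On chromosome 13, Ecm2, Aspn, Omd and Ogn lie within 119.7 kb on the plus strand, and all 4 had positive log2 fold changes, with Ecm2, a family gene outside the 9 members, at 0.53 (SE 0.39). On chromosome 1, Optc, Prelp and Fmod lie within 151 kb and all 3 had negative ones, with Optc, the opticin gene and no member, at -0.52 (SE 0.29). On chromosome 10 the tested pair, Dcn and Lum, was positive. Genes of other families in the same stretches, extended by 100 kb on each side, were read as a comparison. On chromosome 13 these were Ippk, Cenpp, Tes3-ps, Nol8 and Iars, with log2 fold changes from -0.31 to 0.87, and on chromosome 1 Atp2b4 and Btg2, at -0.64 and -0.42. None of those 7 had an unadjusted p below 0.05 by edgeR. Nor did the family genes Ecm2, Optc, Dcn and Lum (edgeR, unadjusted p = 0.221, 0.115, 0.0581 and 0.0611). Tes3-ps, at 0.87, lay above Ecm2, and Atp2b4, at -0.64, lay below Optc. On chromosome 1 the shared sign was thus not particular to the family genes. Cenpp, a centromere protein gene on the minus strand, spans the whole group of 4 family genes (49464023 to 49652785). The library kit does not keep strand, so reads from shared stretches cannot be assigned to one strand. Cenpp measured 2.64 to 4.99 CPM in the 6 libraries and had a log2 fold change of -0.31. Omd measured 1.55 to 4.25 CPM in WT, and Ecm2 1.47 to 4.60 CPM in the 6 libraries. The part of Cenpp reads in the values of the genes it spans was not tested. The antisense gene Gm15851 overlaps Prelp and did not pass the filter on low counts.

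**Figure D4:**
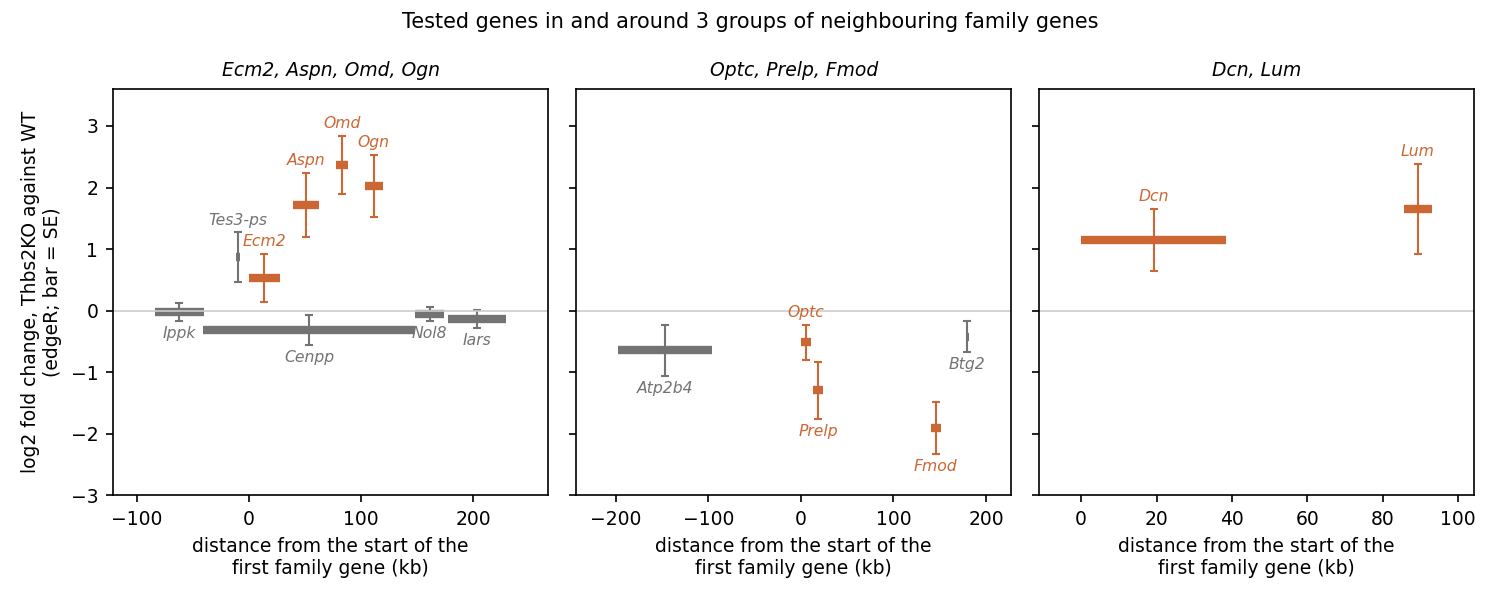
log2 fold change (edgeR, bar = standard error) of tested genes against their distance from the first family gene of each group, for the groups on chromosomes 13, 1 and 10 from left to right, with family genes in orange and others in grey. Aspn, Omd and Ogn lie between 1.71 and 2.37 while the overlapping Cenpp is at -0.31, and Optc, Prelp and Fmod are all negative.

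Because neighbouring members shared their sign, the 250 bases before their RefSeq transcript starts were read (GRCm38.p6, the build of mm10). RefSeq's table matched 7 of the 9 members, and Dcn and Lum were not in it. The windows were searched on both strands for 6 motifs: the TATA box TATAAA, AP-1 TGANTCA, TEAD GGAATG, SMAD CAGACA, RUNX TGTGGT and the CArG box. Over all 32851 promoter windows of the table these were present in 12.4%, 6.75%, 12.6%, 17.1%, 14.1% and 1.47%. Capitals mark the matches in the sequences, which are shown for the chromosome 13 genes, then for the chromosome 1 genes, and last for the most abundant member, Bgn, each 5′ to 3′ in the direction of the gene.
Aspn, chr13:49544193-49544442, plus strand: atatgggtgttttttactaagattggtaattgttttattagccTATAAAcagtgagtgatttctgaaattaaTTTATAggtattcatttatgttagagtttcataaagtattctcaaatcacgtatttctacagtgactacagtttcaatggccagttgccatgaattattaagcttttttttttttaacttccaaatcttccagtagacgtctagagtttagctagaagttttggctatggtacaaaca
Omd, chr13:49582212-49582461, plus strand: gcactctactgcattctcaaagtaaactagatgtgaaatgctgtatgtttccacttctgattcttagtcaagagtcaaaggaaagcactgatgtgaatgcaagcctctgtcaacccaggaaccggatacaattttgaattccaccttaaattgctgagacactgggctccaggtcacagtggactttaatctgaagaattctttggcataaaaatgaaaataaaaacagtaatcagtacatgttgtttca
Ogn, chr13:49607765-49608014, plus strand: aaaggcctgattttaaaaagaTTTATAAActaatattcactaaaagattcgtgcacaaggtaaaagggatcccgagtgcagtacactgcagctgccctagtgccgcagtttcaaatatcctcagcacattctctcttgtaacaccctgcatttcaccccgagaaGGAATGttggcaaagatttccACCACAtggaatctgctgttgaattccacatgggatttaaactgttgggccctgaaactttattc
Prelp, chr1:133921402-133921651, minus strand: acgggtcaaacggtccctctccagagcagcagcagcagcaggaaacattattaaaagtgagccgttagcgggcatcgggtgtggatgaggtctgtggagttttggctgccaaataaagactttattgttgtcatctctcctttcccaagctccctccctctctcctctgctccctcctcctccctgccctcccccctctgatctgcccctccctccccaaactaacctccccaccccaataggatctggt
Fmod, chr1:134037004-134037253, plus strand: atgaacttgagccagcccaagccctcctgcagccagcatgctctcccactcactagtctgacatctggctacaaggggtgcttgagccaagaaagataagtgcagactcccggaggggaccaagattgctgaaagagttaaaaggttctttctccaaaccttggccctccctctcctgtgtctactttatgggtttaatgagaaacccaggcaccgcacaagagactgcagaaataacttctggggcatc
Bgn, chrX:73483351-73483600, plus strand: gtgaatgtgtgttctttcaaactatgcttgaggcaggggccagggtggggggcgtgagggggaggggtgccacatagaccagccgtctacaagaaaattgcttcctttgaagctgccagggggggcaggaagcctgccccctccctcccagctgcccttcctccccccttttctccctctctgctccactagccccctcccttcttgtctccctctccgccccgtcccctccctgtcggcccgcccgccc

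The windows differed in base composition. G and C made up 30.0%, 38.4% and 42.0% of the Aspn, Omd and Ogn windows, 55.6% and 51.2% of those of Prelp and Fmod, 64.4% of that of Bgn and 64.0% and 78.0% of the 2 Podn windows, against a median of 52.4% over all windows. The Ogn window held 3 of the 6 motifs: overlapping TATA-type matches 222 to 229 bases before the start, a TEAD match at 86 to 81 and a RUNX match on the other strand at 65 to 60. Aspn held a TATAAA match on each strand, at 207 to 202 and 178 to 173 bases before the start. No searched motif was in the windows of Omd, Prelp, Fmod, Bgn or Podn, so none was shared by all 3 chromosome 13 members.

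Ratios between members within a library do not depend on how libraries are scaled, and 4 were compared by an exact two-sided permutation test, for which 0.1 is the smallest p that 3 against 3 libraries can give. Fmod and Lum bind the same collagen site, and their balance differed most. Per kb, Fmod exceeded Lum 4.67-, 5.37- and 7.76-fold in WT and 1.59- and 1.61-fold in Thbs2KO replicates 1 and 2, and in Thbs2KO replicate 3 the ratio was 0.153. The mean log2 ratio of counts was 2.88 ± 0.38 in WT and -0.10 ± 1.96 in Thbs2KO (SD, n = 3; difference -2.99, exact p = 0.1, 0.2 after Benjamini-Hochberg adjustment over the 4 ratios). Without Thbs2KO replicate 3 the difference was -1.86. Bgn over Dcn was 4.16 ± 0.16 in WT and 3.27 ± 0.67 in Thbs2KO on the log2 scale (difference -0.89, exact p = 0.1, adjusted 0.2), and the difference was -0.52 without Thbs2KO replicate 3. The groups did not overlap for either ratio, and by CPM they did not overlap for 19.7% of all tested genes.

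For the other ratios the groups overlapped. Aspn over Dcn was -3.05, -2.07 and -3.13 in WT and -2.08, -2.09 and -2.18 in Thbs2KO on the log2 scale of counts. WT replicate 2 thus had the Thbs2KO balance, and the difference was 0.63 (exact p = 0.4, adjusted 0.4). The 3 Thbs2KO libraries were nearly equal in this ratio although Aspn and Dcn themselves varied 3.44-fold and 3.66-fold between them. Ogn over Aspn was 1.04, 1.86 and 1.85 in WT and 2.14, 2.05 and 1.80 in Thbs2KO, a difference of 0.42 (exact p = 0.3, adjusted 0.4) that was 0.15 without WT replicate 1, the lowest library.

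**Figure D5:**
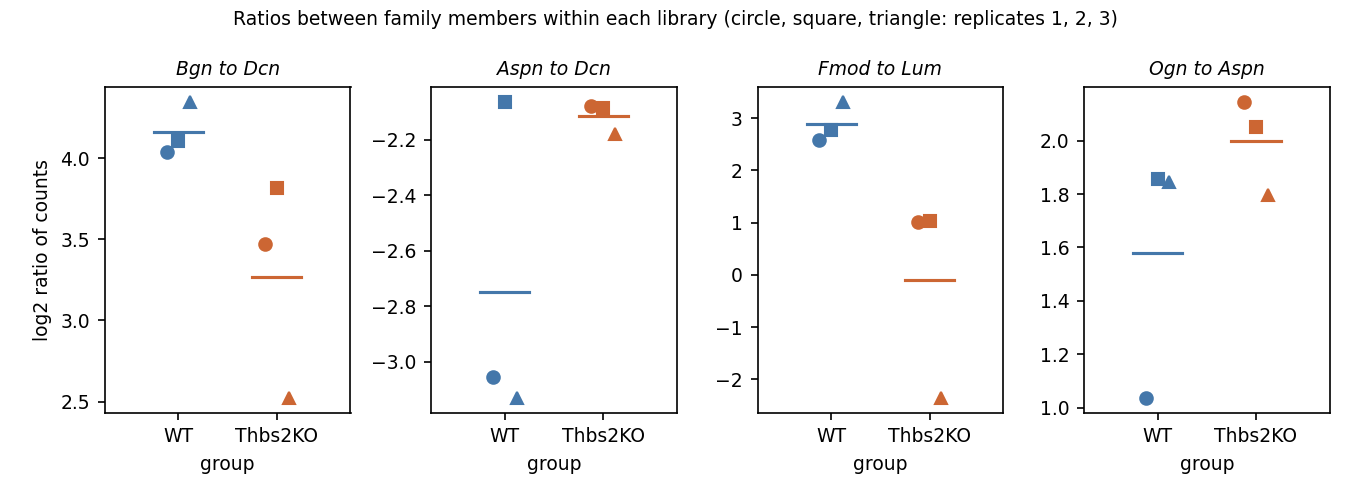
log2 ratio of counts between 2 members in each library, for 4 ratios with their own vertical scales, with blue for WT, orange for Thbs2KO and a line at the group mean. Bgn to Dcn and Fmod to Lum separate the groups, and Thbs2KO replicate 3 is lowest in both, at 2.52 and -2.36.

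Of 9 further genes of the wider family, 4 passed the filter on low counts and 0 passed the edgeR test, at an adjusted or an unadjusted threshold of 0.05, and DESeq2 called 0. Tsku (tsukushi, an extracellular modulator of BMP and Wnt signals) was the most abundant, at 42.1, 36.5 and 40.6 CPM in WT and 36.8, 42.5 and 37.3 CPM in Thbs2KO, with no separation of the groups. Podnl1, a relative of podocan, measured 4.05 to 5.70 CPM in WT and 2.40 to 5.14 CPM in Thbs2KO. Epyc (epiphycan), the last gene of the chromosome 10 group, did not pass the filter. It had 3, 4 and 1 reads in WT and 49, 41 and 0 reads in Thbs2KO replicates 1, 2 and 3, so its reads came almost wholly from the pair of libraries that were most alike. Without Thbs2KO replicate 3 it passed the filter and was called by edgeR (log2 fold change 4.17, adjusted p = 0.0359), where 0.792% of tested genes were called. It was likewise called without that library and WT replicate 1 (4.26, edgeR, adjusted p = 0.00529), where 11.2% were called. Epyc passed the filter there only through Thbs2KO replicates 1 and 2, the libraries where it was high. These calls therefore add no support. Without any 1 of the WT libraries the adjusted p of Epyc was 0.314 to 0.678 by edgeR. Chad had no read in any library, Kera had 1, and Nyx and Chadl stayed below 1 CPM.

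The enzymes that build the chondroitin and dermatan sulfate chains of decorin and biglycan had a median log2 fold change of -0.03 over 21 tested of 22 genes. Of these, 1 passed the test and was lower: Chst12, a chondroitin 4-O-sulfotransferase, fell from 81.6, 86.3 and 89.1 CPM in WT to 56.5, 60.0 and 60.3 CPM in Thbs2KO. Its log2 fold change was -0.54 (SE 0.069; edgeR, adjusted p = 0.0244). The spread within each group was small and the groups lay well apart. The call was lost when replicate 2 or 3 of WT or replicate 1 or 2 of Thbs2KO was left out (edgeR, adjusted p = 0.0968, 0.122, 0.153 and 0.118) and with the most alike pair summed (0.13), with log2 fold changes of -0.51 to -0.55. The list held 4 lower and 0 higher genes at an unadjusted p below 0.05, and DESeq2 called 2 lower. For keratan sulfate, 6 of 8 genes were tested and 0 passed by edgeR, while 1 was higher at an unadjusted p below 0.05 and by DESeq2. B4galt4, a galactosyltransferase of keratan chains, measured 5.73, 3.59 and 4.36 CPM in WT and 7.85, 7.49 and 8.95 CPM in Thbs2KO (edgeR, adjusted p = 0.136). B3gnt2, which adds N-acetylglucosamine to such chains, had a log2 fold change of -0.30 (edgeR, adjusted p = 0.570).

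Of 13 collagens that these proteins bind or flank, 12 were tested and 0 passed by edgeR, with a median log2 fold change of 0.15. Unadjusted p was below 0.05 for 3 higher and 2 lower genes, and DESeq2 called 2 higher and 1 lower. Col6a2 and Col6a1, chains of the beaded filament collagen VI to which biglycan and decorin bind, measured 501, 529 and 588 CPM and 731, 709 and 752 CPM in WT. In Thbs2KO they measured 872, 820 and 1625 CPM and 1070, 998 and 1919 CPM, so both were highest in Thbs2KO replicate 3, as Dcn was (edgeR, adjusted p = 0.155 and 0.199).

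Among 20 genes for receptors and ligands of these proteins 19 were tested and 1 passed. Unadjusted p was below 0.05 for 4 higher and 0 lower genes, and DESeq2 called 3 higher. The median log2 fold change was 0.04. Tlr2, a Toll-like receptor that binds soluble biglycan, rose from 3.06, 1.88 and 2.31 CPM in WT to 7.05, 5.92 and 6.11 CPM in Thbs2KO. Its log2 fold change was 1.40 (SE 0.22; edgeR, adjusted p = 0.0464). Its level was low and the groups did not overlap. The call held without WT replicate 1 and was lost with each of the 5 other libraries left out (edgeR, adjusted p from 0.0967 to 0.218) and with the most alike pair summed (0.174), with log2 fold changes of 1.26 to 1.44. Markers of immune cells, which also express Tlr2, summed to 3.86 to 14.4 CPM in WT and 2.10 to 9.05 CPM in Thbs2KO. Cd3e was at 0 and Ptprc at no more than 0.168 CPM. Lyz2 measured 1.98, 1.27 and 10.3 CPM in WT and 3.22, 0.440 and 5.53 CPM in Thbs2KO. Csf1r measured 1.85, 1.93 and 2.39 CPM in WT and 1.84, 1.27 and 1.22 CPM in Thbs2KO. The part of immune cells in the Tlr2 values was not tested.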

How the data were processed

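RNA-seq was carried out on 6 CAF libraries, 3 WT and 3 Thbs2KO. The authors deposited expected counts per gene without scaling. The submitters' processing notes list the mm10 build, RSEM, STAR 2.7.3a and Trimmomatic 0.39, and no annotation release is given in the sources used here. Reads that match several genes are shared out by RSEM's estimate. Counts were rounded (3.80% to 3.88% of values per library were not whole), filtered with filterByExpr, scaled with TMM and tested in edgeR 4.0.16 (quasi-likelihood, robust, with genotype alone) under R 4.3.3, with Benjamini-Hochberg adjustment over 13590 genes and a threshold of 0.05. Alternatives used DESeq2 1.42.0 and limma 3.58.1. Standard errors come from the F statistic. Gene positions and transcript lengths are those of GENCODE M21 (mm10), and log2 CPM used a prior count of 2. Ratios used counts plus 0.5. Members and lists were chosen with earlier results of these data known. All members were named; genes alike in pattern were named for the members with the largest and smallest log2 fold change, and other lists by the genes that passed or, where none did, the 2 with the smallest p; 1 gene alike in pattern to Fmod is not reported here. Family neighbours on the chromosome were named too. The other neighbours, the exon length alternative, the motifs, and Tsku, Podnl1, Epyc, Chad, Kera, Nyx and Chadl were chosen after values were seen. Other marker lists, of pericytes and smooth muscle and of cartilage, tendon and bone, were also read. Figures were drawn with matplotlib 3.10.9.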

Additional observations from a re-analysis of the deposited data

How the results depend on the processing

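Over the 9 members and 16 alternatives, 129 of 144 log2 fold changes kept their direction and side of the threshold, 9 newly passed it with the same sign and 6 changed sign, of which 1 (Podn with the 2 libraries that stand apart left out) also passed it. The sign changes were those of Bgn (-0.04 without WT replicate 2 and -0.16 without Thbs2KO replicate 3, in a range of -0.16 to 0.22 with 1 library left out) and Podn (-0.13 with limma-voom, -0.13 with the replicate block, -0.81 to 0.54 with 1 library left out, the lowest without Thbs2KO replicate 3, and -0.77 without the libraries that stand apart, WT replicate 1 with Thbs2KO replicate 3). Against 0 members called, DESeq2 called 4, the fit without that pair called 3 (Fmod, Prelp and Podn), and fits with 1 library left out called 0 to 2. In the fit that called 3, the Thbs2KO group was only the most alike libraries, replicates 1 and 2. With those summed and all others kept, 0 members were called. In the fit that called 3, Omd, Ogn, Aspn, Dcn and Lum had log2 fold changes of 1.89, 1.255, 1.01, 0.60 and 0.08. Their adjusted p there was 0.0665 to 0.753 by edgeR, and 0.196 to 0.430 with Thbs2KO replicates 1 and 2 summed. The count of all changed genes, 148, was 699 with DESeq2, 245 with no filter on low counts, 1519 without WT replicate 1 and Thbs2KO replicate 3, 40 with Thbs2KO replicates 1 and 2 summed, and 38 to 397 with 1 library left out. The labels do not say whether replicate numbers pair these samples. Deviations of same-numbered libraries correlated at -0.29, 0.17 and -0.33, and not every library correlated best with its own number. The highest value, 0.40, was that of WT replicate 1 with Thbs2KO replicate 3, the libraries that stand apart. With so few libraries these correlations cannot exclude a shared batch. The replicate block gave 30 changed genes and 0 members, and Chst12, Tlr2 and Rtl3 then had adjusted p of 0.158, 0.147 and 0.149 by edgeR. The 4 ratios kept their direction under every alternative tried. Depth is lowest for Omd in WT (37 to 97 reads) and for Epyc (0 to 49 reads), and the parts of counting error and spread were not separated.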

Other observations

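Of 9 proteases known to cut these proteins 8 were tested and 0 passed by edgeR. Unadjusted p was below 0.05 for 0 higher genes and 1 lower gene, and DESeq2 called 1 lower. The median log2 fold change was 0.39. Bmp1, the procollagen C-proteinase that also matures biglycan and osteoglycin, measured 543, 522 and 518 CPM in WT and 447, 465 and 446 CPM in Thbs2KO. Its log2 fold change was -0.22 (SE 0.068; edgeR, adjusted p = 0.228). Mmp2, a gelatinase, measured 809, 340 and 393 CPM in WT and 744, 698 and 1754 CPM in Thbs2KO (edgeR, adjusted p = 0.411). Its highest library was Thbs2KO replicate 3, as for 7 of the 9 proteoglycans, and its highest WT library was replicate 1.

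Markers of cartilage, tendon and bone, tissues in which osteomodulin and fibromodulin are best known, summed to 68.2 to 108 CPM in WT and 58.9 to 70.6 CPM in Thbs2KO. Of 6 tested genes of the list 2 had positive and 4 negative log2 fold changes, 0 higher and 3 lower at an unadjusted p below 0.05 by edgeR, which called 0; DESeq2 called 2 lower. Runx2 and Sox9 were the most abundant of the list. Runx2 measured 44.25 to 53.2 CPM in WT and 30.1 to 41.8 CPM in Thbs2KO, and Sox9 18.1 to 50.4 CPM and 23.4 to 26.4 CPM. Acan was at 0 in all 6 libraries, and Sp7 and Ibsp, which mark bone-forming cells, were at no more than 0.189 and 0.0861 CPM. Tnmd, a tendon gene, measured 2.02, 0.832 and 1.30 CPM in WT and 0.0473, 0.343 and 0.391 CPM in Thbs2KO, while Scx, a transcription factor of tendon, measured 0.990, 2.63 and 0.964 CPM in WT and 1.18, 1.47 and 3.96 CPM in Thbs2KO.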
